A study of Mus musculus with 14 samples.

Results

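The 9 genes were Postn, Fn1, Ccn1, Ccn2, Thbs1, Tnc, Cthrc1, Fap and Ltbr, named for the activated interstitial fibroblast of the aortic valve. They were taken by symbol from the 56941 genes of the deposited mouse count table. The rule itself used no measured values, but the 9 genes were chosen with earlier results of these data known. All 9 passed the filter of a mean count of at least 10 that left 19145 genes to test. The counts are bulk RNA-seq of aortic valve leaflets from 14 mice, 1 library per mouse. All mice were male C57BL/6J wild type, were 8 weeks old at the start and ate the Breslow Western Diet, so the Ctrl mice carry the diet too. The 4 Ctrl mice received neither agent. The 2 LY mice received the HTR2B serotonin receptor antagonist LY272015 at 3 mg/kg by repeated intraperitoneal injection. The 4 AngII mice received angiotensin II at 1000 ng/kg/min from a subcutaneous osmotic pump for 28 days, and the 4 AngII+LY mice received both agents. For the AngII and AngII+LY mice, the design text places tissue collection 48 hours after pump removal, while the authors describe pump removal for only a subset of these groups. No pump removal is given for the Ctrl and LY mice. Hearts were perfused with PBS. The treatment entries of LY 2 and of AngII+LY 2, 3 and 4 carry other compound numbers (LY272016 to LY272018), and these mice were grouped by their titles.

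The interstitial cells of the valve are its resident fibroblasts, and they keep up the collagen, proteoglycan and elastin layers of the leaflet. When activated they secrete matricellular proteins, which sit in the matrix and tune cell adhesion and growth factor signalling more than they bear load. TGF-beta signalling and the mechanically regulated YAP and TAZ co-activators, which act through TEAD factors, are well known inducers of several of these genes, Ccn1 and Ccn2 above all.

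Library totals ran from 20990655 (AngII 4) to 73128220 (AngII 2) counts, and Tnc, the gene with the fewest counts, carries the most counting error. All 12 valve interstitial markers, among them Vim, Dcn, Hapln1 and Prg4, were detected in every library, and the lowest of their normalized counts in any mouse was 1189, for Pdgfra. The same libraries also held endothelial, macrophage and cardiomyocyte transcripts. Among Ctrl mice, 1.69 to 2.96% of counts fell on the 14 interstitial reference genes and 0.946 to 3.66% on the 14 cardiomyocyte markers. The shares were 1.98 to 2.93% and 1.79 to 2.18% for the LY mice, 1.49 to 2.54% and 0.912 to 1.79% for the AngII mice, and 1.0 to 1.37% and 2.25 to 4.83% for the AngII+LY mice. Ctrl 1 stood apart, with 1.0% of its counts in smooth muscle markers and no more than 0.249% in any other Ctrl mouse. In bulk tissue, fewer interstitial cells and less RNA of a gene per interstitial cell cannot be told apart.

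To place the genes against each other, counts were set to a common library size and divided by the length of the canonical transcript. In Ctrl, Postn, the matricellular protein periostin that binds collagen and integrins, had the highest level, 18353 ± 9548 normalized counts per kb (SD, n = 4), above 99.1% of the 19043 tested genes with an annotated length. The CCN proteins Ccn1, also called Cyr61, and Ccn2, also called CTGF, followed with 7013 ± 2178 and 6042 ± 4182 normalized counts per kb, and Thbs1, thrombospondin 1, an activator of latent TGF-beta, with 5318 ± 2629. These 4 genes did not separate from their neighbours in the order, since the ranges of each adjoining pair overlapped between mice. A gap then followed to Ltbr, the lymphotoxin beta receptor of the TNF receptor superfamily, at 1717 ± 160, and Fn1, fibronectin, at 1641 ± 575, whose ranges overlapped each other but not that of Thbs1 or of Cthrc1. Cthrc1, a secreted protein with a collagen triple helix repeat, stood at 550 ± 158 normalized counts per kb. Fap, the cell surface serine protease fibroblast activation protein, stood at 123 ± 61.0. The lowest level was that of Tnc, the matricellular hexamer tenascin C, at 24.2 ± 20.9, above only 19.9% of genes. Cthrc1, Fap and Tnc did not overlap with each other in any Ctrl mouse. With the length of all annotated exons in place of the canonical transcript, Ccn1 came first at 7013 and Postn next at 6635 normalized counts per kb, Fn1 no longer overlapped Ltbr, and Tnc overlapped Fap.

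Positions are given in GRCm39, the build to which the authors aligned, with GENCODE vM39 annotation. Postn (ENSMUSG00000027750) spans chr3:54268501-54298471 on the plus strand with 21 canonical exons. Thbs1 (ENSMUSG00000040152) spans chr2:117941974-117957616 on the plus strand with 22 exons. Fap (ENSMUSG00000000392), the second gene on that chromosome, spans chr2:62331286-62404419 on the minus strand with 26 exons. Ccn2 (ENSMUSG00000019997) is short, at chr10:24471333-24474900 on the plus strand with 5 exons, as is Ccn1 (ENSMUSG00000028195) at chr3:145352720-145355738 on the minus strand, also with 5 exons. Tnc (ENSMUSG00000028364) spans chr4:63878014-63965443 on the minus strand with 26 exons. Fn1 (ENSMUSG00000026193) spans chr1:71624673-71692419 on the minus strand with 46 exons. Cthrc1 (ENSMUSG00000054196) spans chr15:38940246-38950518 on the plus strand with 4 exons, and Ltbr (ENSMUSG00000030339) spans chr6:125283534-125290886 on the minus strand with 10.

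The 300 bases around the canonical GENCODE start of 8 of the genes, 250 before it and 50 from it on, were read from the GRCm39 assembly. Both strands were searched for the TEAD motif GGAATG and the AP-1 motif TGANTCA, the sites of the YAP and TAZ partners and of Fos and Jun. The SMAD motif CAGAC, the TATA motif TATAAA and the CArG box of serum response factor were searched as well. The promoters of Ccn1, a classical TEAD target, of Tnc, the gene with the lowest level per kb, and of Thbs1 and Postn, the pair that differed most clearly between AngII+LY and AngII, are shown 5′ to 3′ on the gene's own strand, with TEAD, AP-1 and TATA matches in capitals.
Ccn1: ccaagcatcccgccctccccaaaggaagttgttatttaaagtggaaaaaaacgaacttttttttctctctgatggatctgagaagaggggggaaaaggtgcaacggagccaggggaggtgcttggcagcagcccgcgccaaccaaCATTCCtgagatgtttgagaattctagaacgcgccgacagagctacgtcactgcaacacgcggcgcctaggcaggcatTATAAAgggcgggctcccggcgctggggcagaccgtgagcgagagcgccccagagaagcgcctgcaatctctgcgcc
Tnc: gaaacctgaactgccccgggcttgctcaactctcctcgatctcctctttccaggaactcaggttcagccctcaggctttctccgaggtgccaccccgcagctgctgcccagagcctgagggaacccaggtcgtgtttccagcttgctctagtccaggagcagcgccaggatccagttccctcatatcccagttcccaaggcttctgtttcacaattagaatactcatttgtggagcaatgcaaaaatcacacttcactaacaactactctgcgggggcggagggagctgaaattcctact
Thbs1: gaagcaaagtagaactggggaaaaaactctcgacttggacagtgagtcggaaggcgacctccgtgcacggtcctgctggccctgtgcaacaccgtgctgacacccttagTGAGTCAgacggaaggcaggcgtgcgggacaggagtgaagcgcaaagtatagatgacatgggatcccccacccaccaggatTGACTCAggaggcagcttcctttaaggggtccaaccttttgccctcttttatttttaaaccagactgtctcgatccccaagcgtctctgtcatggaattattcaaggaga
Postn: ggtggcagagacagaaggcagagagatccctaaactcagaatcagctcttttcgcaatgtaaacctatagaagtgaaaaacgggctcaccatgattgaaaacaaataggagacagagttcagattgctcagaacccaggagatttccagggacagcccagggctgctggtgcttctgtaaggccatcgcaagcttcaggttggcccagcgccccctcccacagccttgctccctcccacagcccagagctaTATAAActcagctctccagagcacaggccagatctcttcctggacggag
The Ccn1 window, at chr3:145355689-145355988 on the minus strand, held 1 TEAD motif at base -105, read on the opposite strand as CATTCC, and a TATA motif at base -27, counted from the start. Of 21770 promoters of the same length, 14% held a TEAD motif at all and 1.19% held at least 2. In the Thbs1 window, at chr2:117941724-117942023 on the plus strand, 2 AP-1 motifs started at bases -141 and -60. An AP-1 motif was present in 7.14% of all promoters, and at least 2 in 0.363%. The first of these Thbs1 matches overlaps a SMAD motif that starts at base -136. The Postn window, at chr3:54268251-54268550 on the plus strand, held a TATA motif at base 2 and none of the others, and the Tnc window, at chr4:63965394-63965693 on the minus strand, held no match at all. Among the promoters not shown, Cthrc1 had 2 TEAD motifs, at bases -217 and -159, and Fap a TATA motif at base -136. Short SMAD motifs, present in 48.4% of all promoters, were found in 4 of the 8 genes (Fn1, Ccn1, Thbs1 and Cthrc1), and no CArG motif was found in any of the 8. These matches describe the letters of the windows only.

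The first question of the design was how the genes differed after angiotensin II alone. With edgeR's quasi-likelihood test and Benjamini-Hochberg adjustment over the 19145 genes, 0 of the 9 genes passed an adjusted p under 0.05 with an absolute log2 fold change above 0.5 in any of the 5 comparisons, as did 0% of all genes tested. At an unadjusted p under 0.05, AngII mice had 1 gene higher than Ctrl mice and 2 lower, against 13.4% and 11.7% of all genes tested. DESeq2 called 1 lower and 0 higher, against 4.75% and 9.16% of all genes. The 4 AngII mice lay wholly above the 4 Ctrl mice for 0 genes and wholly below them for 0 genes, against 7.46% and 7.56% of all genes. Of the 9 genes, 5 had a higher fitted level in AngII, against 47.2% of all genes, and their median log2 fold change was 0.13, against -0.06 over all genes tested. These p-values measure the spread between these mice.

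Fn1 had normalized counts of 12419, 9497, 20734 and 12560 in the 4 Ctrl mice and of 8885, 8361, 10476 and 7978 in the 4 AngII mice. Ctrl 3 was by far the highest, and AngII 3 lay above the lowest Ctrl mouse, Ctrl 2. Fn1 thus had a log2 fold change of -0.63 (SE 0.21), with an unadjusted p of 0.0101 and an adjusted p of 0.0998 in edgeR, while DESeq2 gave -0.59 with an adjusted p of 0.0417. Fibronectin is the adhesive glycoprotein on which other matrix proteins assemble.

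Cthrc1 had normalized counts of 685, 457, 586 and 907 in Ctrl and of 813, 1710, 948 and 1304 in AngII. Its AngII 1 mouse lay below Ctrl 4, and the other AngII mice lay above all 4 Ctrl mice. Its log2 fold change was 0.86 (SE 0.34), with an unadjusted p of 0.0261 and an adjusted p of 0.144 in edgeR. Ltbr, which signals to the alternative NF-kappaB pathway, went the other way. Its normalized counts were 4105, 3301, 3531 and 3591 in Ctrl and 3510, 3101, 1973 and 1515 in AngII, with AngII 3 and AngII 4 well below the rest. The log2 fold change of Ltbr was -0.52 (SE 0.24), with an unadjusted p of 0.0473 and an adjusted p of 0.193 in edgeR. For each of Fn1, Cthrc1 and Ltbr the exact 2-sided permutation test over 4 against 4 mice gave p = 0.0571. Without Ctrl 3, none of the 3 kept an unadjusted p under 0.05, and the log2 fold changes were -0.36 for Fn1, 0.80 for Cthrc1 and -0.54 for Ltbr (adjusted p = 0.264, 0.272 and 0.286 in edgeR).

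Postn, the most abundant of the genes, had normalized counts of 89796, 25775, 39830 and 77021 in Ctrl and of 75864, 77769, 84679 and 68172 in AngII. The AngII mice all lay inside the Ctrl range, and the Ctrl mice fell into a higher and a lower pair. Its log2 fold change was 0.40 (SE 0.42, adjusted p = 0.592 in edgeR). The SD over mice was 30229 normalized counts in Ctrl and 6788 in AngII.

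Tnc had normalized counts of 324, 293, 36.7 and 53.1 in Ctrl and of 35.2, 501, 671 and 662 in AngII. AngII 2, 3 and 4 stood above every Ctrl mouse, and AngII 1 stood below them all. On the log2 scale the difference was 1.40 (SE 0.87, adjusted p = 0.334 in edgeR), the largest estimate among the 9 genes and the least precise. Ccn2 had 32935, 14995, 7238 and 10786 normalized counts in Ctrl and 10793, 22577, 23449 and 31146 in AngII. Ctrl 1, the mouse that stands apart by its smooth muscle transcripts, had the highest Ccn2 level of all 14 mice. The log2 fold change of Ccn2 was 0.42 (SE 0.41), and 1.0 without Ctrl 1, where its unadjusted p was under 0.05. Whether the smooth muscle transcripts of Ctrl 1 bear on its Ccn2 level was not tested.

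Ccn1, an immediate early CCN protein that supports adhesion and angiogenesis, had normalized counts of 19881, 13984, 9061 and 14076 in Ctrl and of 10020, 12867, 7853 and 12104 in AngII. Ctrl 1 was again the highest of all 14 mice, and the groups overlapped widely. For Ccn1, Thbs1 and Fap the difference between AngII and Ctrl was within the spread between mice. It was -0.41 (SE 0.28) on the log2 scale for Ccn1, -0.18 (SE 0.36) for Thbs1 and 0.13 (SE 0.45) for Fap, with edgeR adjusted p-values of 0.377, 0.802 and 0.894.

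**Figure D1:**
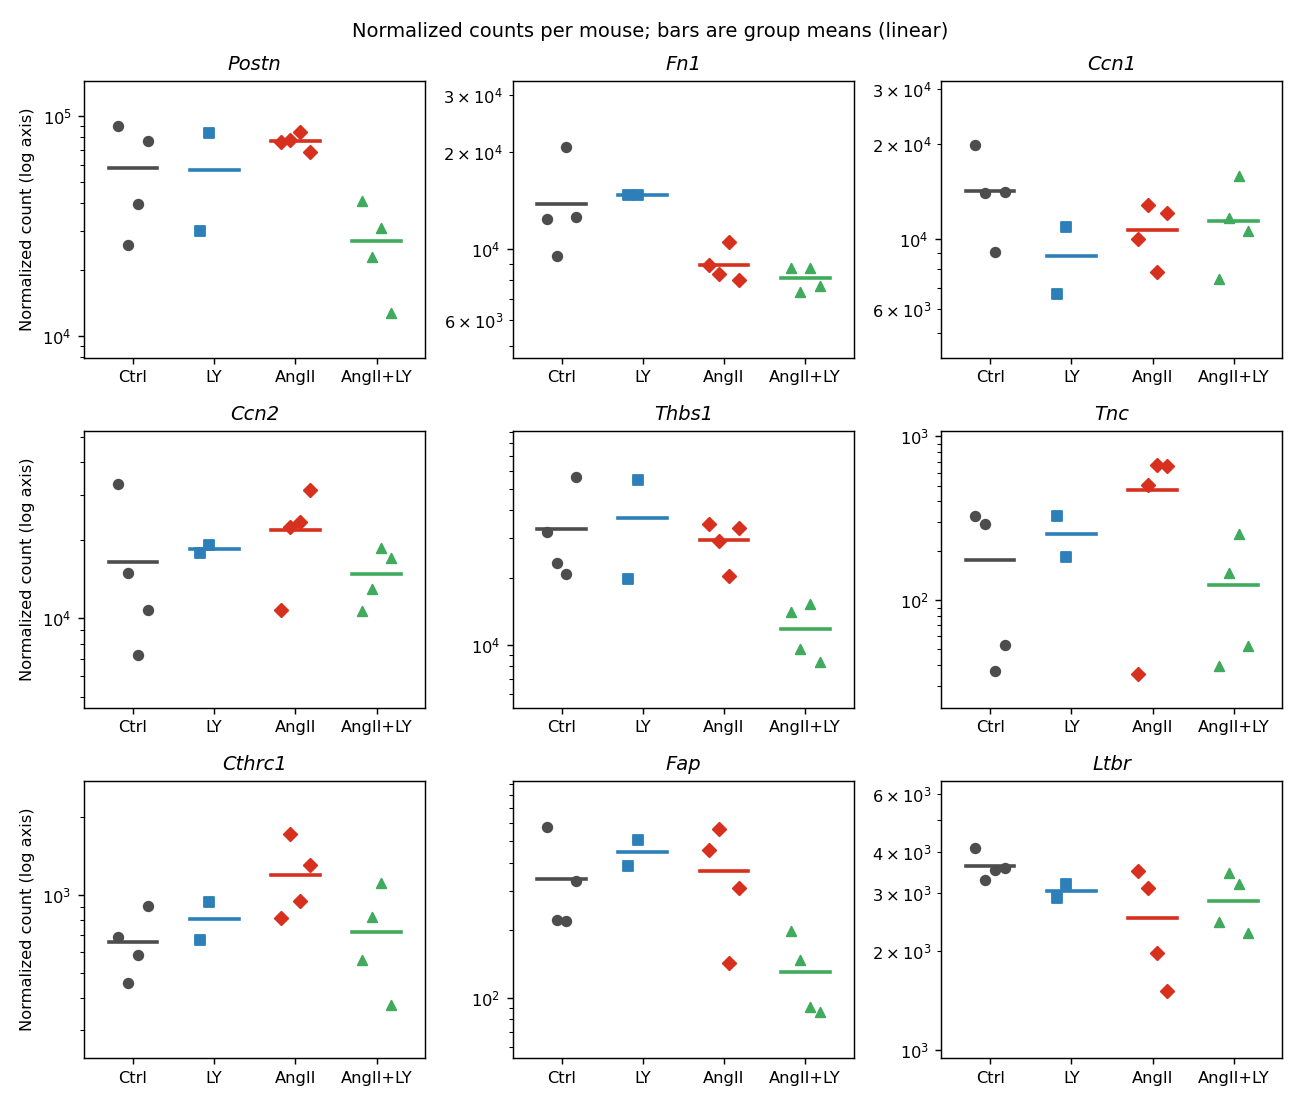
Normalized counts of the 9 genes on a log axis in each of the 14 mice, 1 panel per gene, with 1 point per mouse and a bar at the group mean of Ctrl (n = 4), LY (n = 2), AngII (n = 4) and AngII+LY (n = 4). The 4 AngII+LY mice lie below all 4 AngII mice for Postn and Thbs1, and Tnc spreads from 35.2 to 671 within AngII.

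The second question was how the genes differed when the HTR2B antagonist was given with angiotensin II. Of the 9 genes, 4 (Postn, Thbs1, Fap and Tnc) were lower in AngII+LY than in AngII at an unadjusted p under 0.05, against 12.4% of all genes tested, and 0 were higher, against 10.1%. DESeq2 called 3 of them lower (Postn, Thbs1 and Fap) and 0 higher, against 5.54% and 5.34% of all genes. For 2 genes, Postn and Thbs1, the AngII+LY mice all fell short of the lowest AngII mouse, against 5.66% of all genes, and for 0 genes they all exceeded the highest, against 5.45%. Fitted levels were lower for 7 of the 9, against 50.9% of all genes, and the median log2 fold change was -0.74, against -0.02 over all genes tested. This comparison and the one of AngII with Ctrl share the 4 AngII mice, so opposite signs in the 2 comparisons are not independent of each other.

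Postn had normalized counts of 41131, 22884, 30797 and 12745 in AngII+LY, against 75864, 77769, 84679 and 68172 in AngII. The highest AngII+LY mouse lay well under the lowest AngII mouse, and the mean was 2.85-fold lower. This gave a log2 fold change of -1.51 (SE 0.43), with an unadjusted p of 0.00351 and an adjusted p of 0.0793 in edgeR, an adjusted p of 0.00597 in DESeq2, and an exact 2-sided permutation p of 0.0286, the smallest that 4 against 4 mice allow.

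Thbs1 had normalized counts of 14012, 9518, 15267 and 8343 in AngII+LY, against 34838, 29016, 20251 and 33217 in AngII. Again the groups did not overlap, with AngII 3 the closest to the AngII+LY mice, and the mean was 2.49-fold lower. The log2 fold change was -1.32 (SE 0.37), with an unadjusted p of 0.00319 and an adjusted p of 0.0772 in edgeR, an adjusted p of 0.00692 in DESeq2 and an exact permutation p of 0.0286.

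Fap had normalized counts of 198, 147, 90.7 and 86.2 in AngII+LY, against 456, 566, 143 and 308 in AngII. AngII 3 lay inside the AngII+LY range, and the other AngII mice lay above it. The mean was 2.82-fold lower and the log2 fold change -1.50 (SE 0.47), with an unadjusted p of 0.00616 and an adjusted p of 0.094 in edgeR, an adjusted p of 0.0179 in DESeq2 and an exact permutation p of 0.0857. Fap cleaves denatured collagen and peptides after proline and marks activated fibroblasts in many tissues.

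Tnc had normalized counts of 39.8, 147, 252 and 52.7 in AngII+LY, all below AngII 2, 3 and 4 and all above AngII 1. Its log2 fold change was -1.93 (SE 0.89), with an unadjusted p of 0.0472 and an adjusted p of 0.216 in edgeR and an exact permutation p of 0.229. Cthrc1 had 560, 819, 1113 and 376 normalized counts in AngII+LY, with a log2 fold change of -0.74 (SE 0.34, adjusted p = 0.223 in edgeR).

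The CCN proteins did not separate the groups. Ccn2 had 10664, 13016, 18614 and 17057 normalized counts in AngII+LY. AngII+LY 1 lay just below the lowest AngII mouse and the others inside the AngII range. Ccn2 had a log2 fold change of -0.57 (SE 0.41, adjusted p = 0.443 in edgeR). Ccn1 had 7438, 11682, 15866 and 10587, with a log2 fold change of 0.09 (SE 0.28, adjusted p = 0.891 in edgeR). Fn1 and Ltbr had log2 fold changes of -0.14 (SE 0.21) and 0.17 (SE 0.24), with edgeR adjusted p-values of 0.752 and 0.722. The AngII+LY mice had 2456, 3448, 3211 and 2274 normalized counts of Ltbr, which lie between the lowest and the highest AngII mouse.

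Compared with Ctrl, AngII+LY mice had 4 of the 9 genes lower at an unadjusted p under 0.05 (Thbs1, Fn1, Fap and Postn), against 6.14% of all genes tested, and 0 higher, against 4.89%. DESeq2 called 1 of them, Thbs1, against 0.951% of all genes called lower and 0.841% called higher. All AngII+LY mice were below all Ctrl mice for 3 genes, Thbs1, Fn1 and Fap, against 4.89% of all genes, and above them for 0, against 3.27%. Each of the 3 had an exact permutation p of 0.0286. Fitted levels were lower for 8 of the 9, against 51.9% of all genes, with a median log2 fold change of -0.53 against -0.02. In the same comparison 13 of the 14 interstitial reference genes had lower fitted levels, 9 at an unadjusted p under 0.05 in edgeR and 5 called by DESeq2, with a median log2 fold change of -0.86. All 12 valve interstitial markers were on the lower side too, but Vim, Pdgfra, Dcn, Lum, Col1a1 and Col3a1 are in both of these lists. Higher fitted levels were found for 13 of the 14 cardiomyocyte markers, with a median of 1.13. Libraries were also scaled to the interstitial reference genes, which put the median log2 fold change of all genes at 0.67. With this scaling, 5 of the 9 genes had higher levels in AngII+LY than in Ctrl and their median was 0.28. Thbs1 (-0.72) was then the 1 gene lower at an unadjusted p under 0.05 and Cthrc1 (0.85) the 1 higher. Such a p, in either direction, was found for 5992 of all 19145 genes. Fn1, Fap and Postn then had log2 fold changes of -0.14, -0.58 and -0.32. The part of these transcripts in the values of the 9 genes was not tested.

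Thbs1 in Ctrl had normalized counts of 32023, 23228, 20709 and 56623, every one above the AngII+LY mice. Its mean in AngII+LY was 2.81-fold lower than in Ctrl, with a log2 fold change of -1.49 (SE 0.37), an unadjusted p of 0.00129 and an adjusted p of 0.218 in edgeR and 0.00916 in DESeq2. Fn1 had normalized counts of 8749, 7353, 8712 and 7673 in AngII+LY, below all 4 Ctrl mice. Its mean was 1.70-fold lower, with a log2 fold change of -0.77 (SE 0.21) and adjusted p-values of 0.251 in edgeR and 0.0514 in DESeq2. Unlike Thbs1, Fn1 was at a similar level in AngII and AngII+LY, 8925 ± 1099 and 8122 ± 715 normalized counts (SD, n = 4 each). Fap in Ctrl had 577, 223, 219 and 332 normalized counts, all above the AngII+LY mice, and a log2 fold change of -1.37 (SE 0.46, adjusted p = 0.322 in edgeR). Postn had a log2 fold change of -1.11 (SE 0.43, adjusted p = 0.36 in edgeR), and its AngII+LY mice overlapped the lower pair of Ctrl mice. Without Ctrl 1 the log2 fold changes of Fap and Postn against Ctrl were -0.99 and -0.82 (adjusted p = 0.656 and 0.69 in edgeR), with unadjusted p-values above 0.05.

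**Figure D2:**
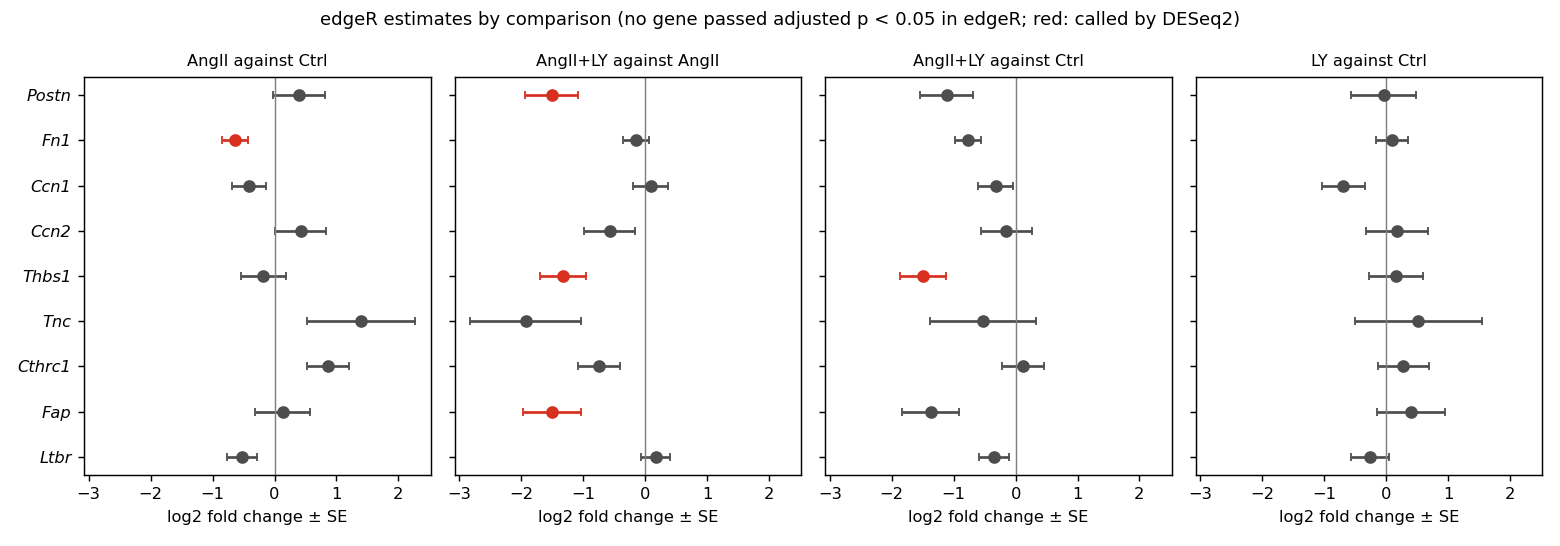
Log2 fold changes of the 9 genes with their standard errors from edgeR, for AngII against Ctrl, AngII+LY against AngII, AngII+LY against Ctrl and LY against Ctrl, with genes called by DESeq2 in red. In the panel of AngII+LY against AngII, Postn, Thbs1, Fap and Tnc lie between -1.93 and -1.32, while Ccn1 and Ltbr lie just above 0.

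The antagonist alone was compared with Ctrl in 2 against 4 mice. At an unadjusted p under 0.05, 0 of the 9 genes differed in edgeR, against 1.39% of all genes tested, and DESeq2 called 0, against 0.110%. Postn had normalized counts of 29931 and 83367 in the 2 LY mice, which spans nearly the whole Ctrl range, and a log2 fold change of -0.04 (approximate 95% interval -1.05 to 0.98). Thbs1, with 19678 and 54529 normalized counts, had a log2 fold change of 0.16 (interval -0.71 to 1.03), and Fap, with 387 and 503, one of 0.40 (interval -0.68 to 1.47). All 3 intervals include 0. Ccn1, with 6701 and 10934 normalized counts, had the difference farthest from 0, -0.69 (SE 0.35, adjusted p = 1 in edgeR), and LY 1 had the lowest Ccn1 level of all 14 mice. The LY mice had 14717 and 14682 normalized counts of Fn1 and 17848 and 19181 of Ccn2, inside the Ctrl ranges. They had 671 and 935 normalized counts of Cthrc1 and 325 and 184 of Tnc, where LY 2 for Cthrc1 and LY 1 for Tnc were just above the highest Ctrl mouse. Ltbr, with 2891 and 3192 normalized counts, was the 1 gene whose LY mice both lay below all Ctrl mice, against 6.41% of all genes tested (for 0 genes both lay above, against 5.64%), and its log2 fold change was -0.26 (SE 0.30, exact permutation p = 0.133, where 2 against 4 mice allow no less than 0.0667).

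Whether the antagonist's difference was larger with angiotensin II than without it was tested as an interaction in the same fit. At an unadjusted p under 0.05, 3 genes had a negative interaction term and 0 a positive one, against 7.64% and 5.66% of all genes tested, and DESeq2 called 0, against 1.06% of all genes in either direction. The term was -1.90 (SE 0.71, adjusted p = 0.307 in edgeR) for Fap, -1.48 (SE 0.57, adjusted p = 0.318) for Thbs1 and -1.47 (SE 0.66, adjusted p = 0.362) for Postn on the log2 scale. Without LY 2 the terms were -1.70 for Fap, -0.56 for Thbs1 and -0.55 for Postn, and without LY 1 they were -2.07, -2.03 and -2.03. The size of the Thbs1 and Postn terms thus rests on which of the LY mice is kept, while that of Fap changed less. With a single LY mouse, these fits give sizes only and do not settle whether the Fap term holds. All 14 interstitial reference genes had a negative interaction term, with a median of -0.54, and 13 of the 14 cardiomyocyte markers a positive one, with a median of 1.39. With scaling to the interstitial reference genes, 0 of the 9 genes had a negative term at an unadjusted p under 0.05, and 2 had a positive one, Ccn1 (1.47) and Ltbr (1.17). That scaling put the median term of all genes at 0.73, and 3820 of 19145 genes had such a p in either direction. With the GC correction, Thbs1 was the 1 gene with a negative term at that p, beside 1564 of all genes in either direction.

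Other transcripts differed between the same AngII and AngII+LY mice. Of all genes, 10.1% were higher and 12.4% lower in AngII+LY at an unadjusted p under 0.05 in edgeR, and DESeq2 called 5.34% higher and 5.54% lower. All 14 interstitial reference genes, broad markers of fibroblasts that include collagen genes, had lower fitted levels in AngII+LY than in AngII, 5 of them at an unadjusted p under 0.05 in edgeR and 5 called by DESeq2, with a median log2 fold change of -0.55. Lum, which encodes the collagen-binding proteoglycan lumican, had -1.46 (SE 0.32, adjusted p = 0.0588 in edgeR), Dpt, dermatopontin, -1.32, and Dcn, decorin, -0.99. All 14 cardiomyocyte markers had higher fitted levels, 10 at an unadjusted p under 0.05 and 7 called by DESeq2, with a median log2 fold change of 1.38. Their part in the values of Postn, Thbs1 and Fap was not tested. Each library was also scaled to the geometric mean of the interstitial reference genes instead of to all genes. This scaling put the median log2 fold change of all genes in this comparison at 0.60. The log2 fold change was then -0.94 for Postn (adjusted p = 0.0957 in edgeR), -0.72 for Thbs1 (adjusted p = 0.145) and -0.81 for Fap (adjusted p = 0.191). Ltbr, at 0.84 (adjusted p = 0.0403 in edgeR), was then the 1 gene of the 9 past the threshold. Of all 19145 genes, 2754 were past it with this scaling, 2707 of them higher.

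The base composition of the transcripts also moved with the groups. Over the 19043 genes with a GC value, the correlation of a library's levels with GC content ran from 0.02 to 0.37 (Spearman's rho) in Ctrl and from -0.44 to -0.08 in AngII, with -0.13 to 0.20 in AngII+LY. Postn and Fap are AT-rich, with 39.2% and 39.9% GC, and Ltbr is GC-rich, with 60.3%, where the median gene has 48.6%. With a correction for GC content in the fit, Postn had a log2 fold change of -0.94 (adjusted p = 0.266 in edgeR) in AngII+LY against AngII, Fap one of -1.0 (adjusted p = 0.309) and Thbs1, at 50.4% GC, one of -1.41 (adjusted p = 0.128). In AngII against Ctrl the corrected value of Ltbr was 0.08 and that of Postn was -0.11, opposite in sign to the uncorrected values. Over the 14 libraries, the level of Ltbr had a Pearson r of 0.74 with the GC correlation of its library.

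**Figure D3:**
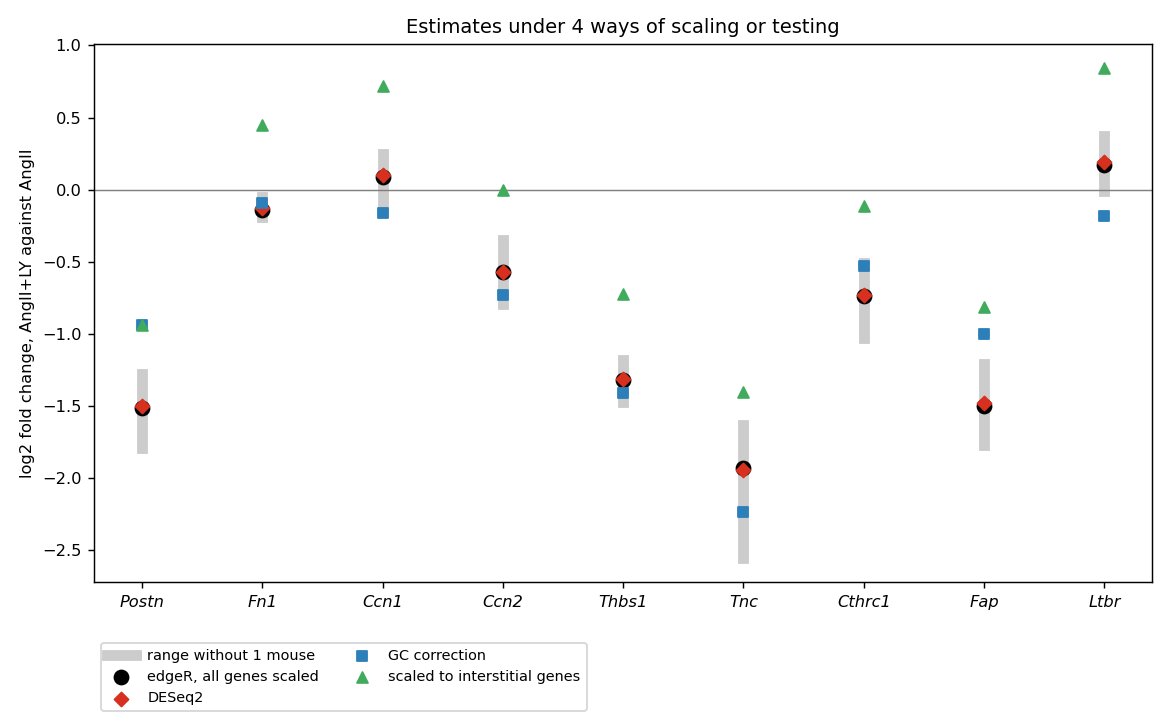
Log2 fold changes of the 9 genes in AngII+LY against AngII from edgeR, from DESeq2, with the GC correction and with scaling to interstitial genes, with grey bars for the range of edgeR values when 1 mouse is left out. Postn, Thbs1, Fap and Tnc lie below 0 in each of these, while Fn1, Ccn1 and Ltbr lie on both sides of 0.

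The 9 genes did not move as one over the mice. Over 14 libraries, which share the group differences and the composition differences above, the 36 pairs had a median Pearson r of 0.26 between log2 normalized counts, from -0.38 to 0.84, and 6 pairs exceeded 0.5. Among them were the pairs of Postn, Thbs1 and Fap. Postn and Thbs1 had r = 0.82 (Spearman's rho 0.67, and r = 0.75 after group means were subtracted), Thbs1 and Fap r = 0.78 (rho 0.75, and 0.46 within groups), and Postn and Fap r = 0.71 (rho 0.61, and 0.51 within groups). The highest value was that of Ccn2 and Tnc, with r = 0.84 (rho 0.84, and 0.82 within groups). Cthrc1 made up the remaining pairs over 0.5, with r = 0.63 to Postn (rho 0.52, and 0.56 within groups) and r = 0.52 to Tnc (rho 0.54, and 0.36 within groups). Ccn1 and Ccn2, both CCN family members, had r = 0.37, and 0.65 within groups. Fn1 and Ltbr had no pair above 0.5.

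**Figure D4:**
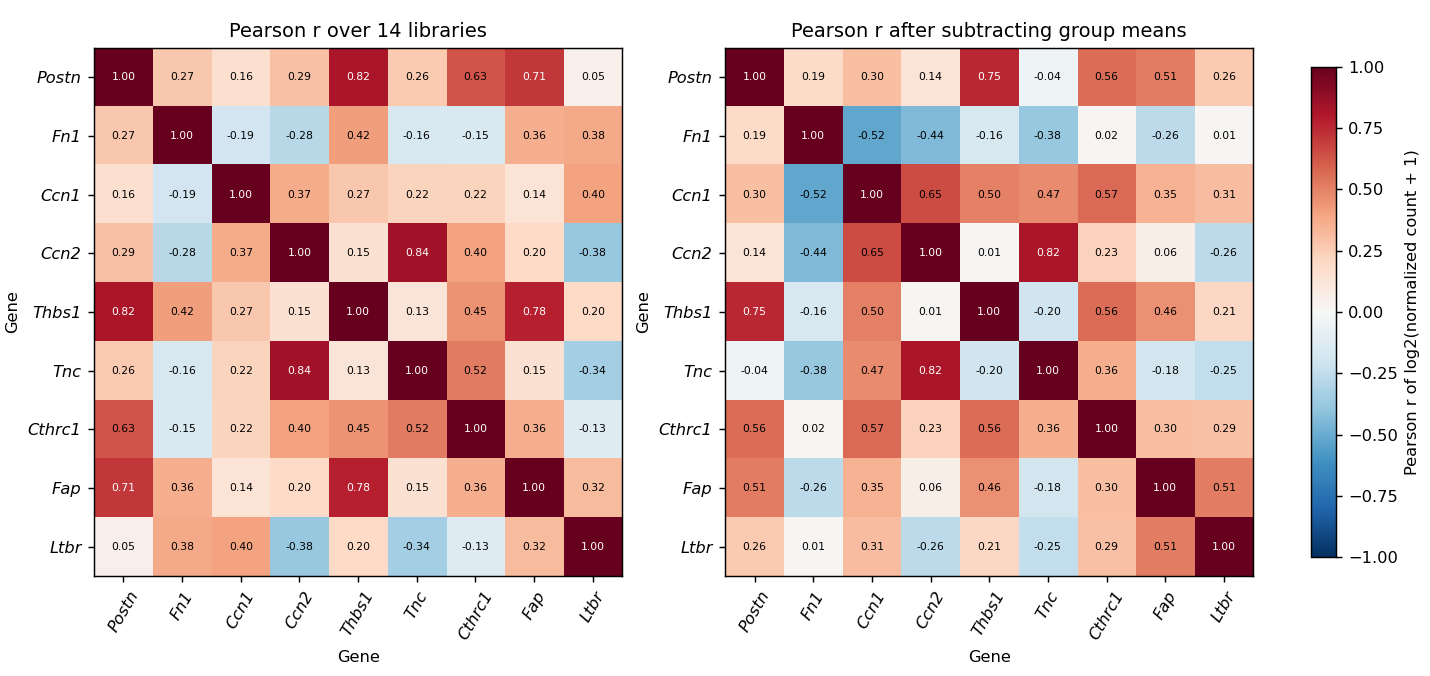
Pearson r between the log2(normalized count + 1) values of each pair of the 9 genes over 14 libraries, on the left as measured and on the right after the group means were subtracted. Postn with Thbs1 (0.82 and 0.75) and Ccn2 with Tnc (0.84 and 0.82) are high in both.

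Against the mean log2 level of other gene lists in the same libraries, Fap (r = 0.89), Thbs1 (0.87) and Postn (0.75) followed the interstitial reference genes, with 0.76, 0.65 and 0.64 within groups. The 4 AngII+LY mice had the lowest mean log2 levels of the interstitial reference genes, 14.2 to 14.5, where every other mouse had 14.6 or more. The same 3 genes had r of -0.81, -0.71 and -0.82 with the cardiomyocyte markers. Ccn1 and Ltbr had r of 0.68 and 0.72 with the immediate early genes, which respond within minutes to handling and stress, and with the other YAP and TAZ target genes Ccn1 and Ccn2 had r of 0.01 and -0.06. Fap, Thbs1, Postn and Fn1 had r of 0.75, 0.72, 0.61 and 0.51 with that list, and 0.45, 0.31, 0.40 and -0.12 within groups. The likeness of each gene to 13619 well counted genes was ranked by Pearson r over the 14 libraries. Nearest to Postn were Fam3c and Dcn (both 0.94), nearest to Thbs1 were Dcn (0.94) and Papss2 (0.93), and nearest to Fap were Dpt (0.93) and Prss35 (0.92). Tnc had Ccn2 itself as its nearest gene (0.84), and Ccn2 had Cpe (0.89) and Pi15 (0.87). The nearest genes were Zfp354c (0.89) and Smc3 (0.87) for Cthrc1, Plekho2 (0.87) and Mmp12 (0.86) for Ccn1, Bahd1 (0.87) and Il27ra (0.86) for Fn1, and Lmf2 (0.98), Stk25 (0.97) and Coro1b (0.96) for Ltbr. These 3 genes have a GC content of 57.6%, 51.1% and 56.9%, all above the median gene, as has Ltbr. The 3 genes nearest to Fn1, Bahd1 (60.1%), Il27ra (53.9%) and Ucp1 (48.8%), were above it as well, while Fn1 itself has 48.2%. Whether GC content bears on these likenesses was not tested.

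**Figure D5:**
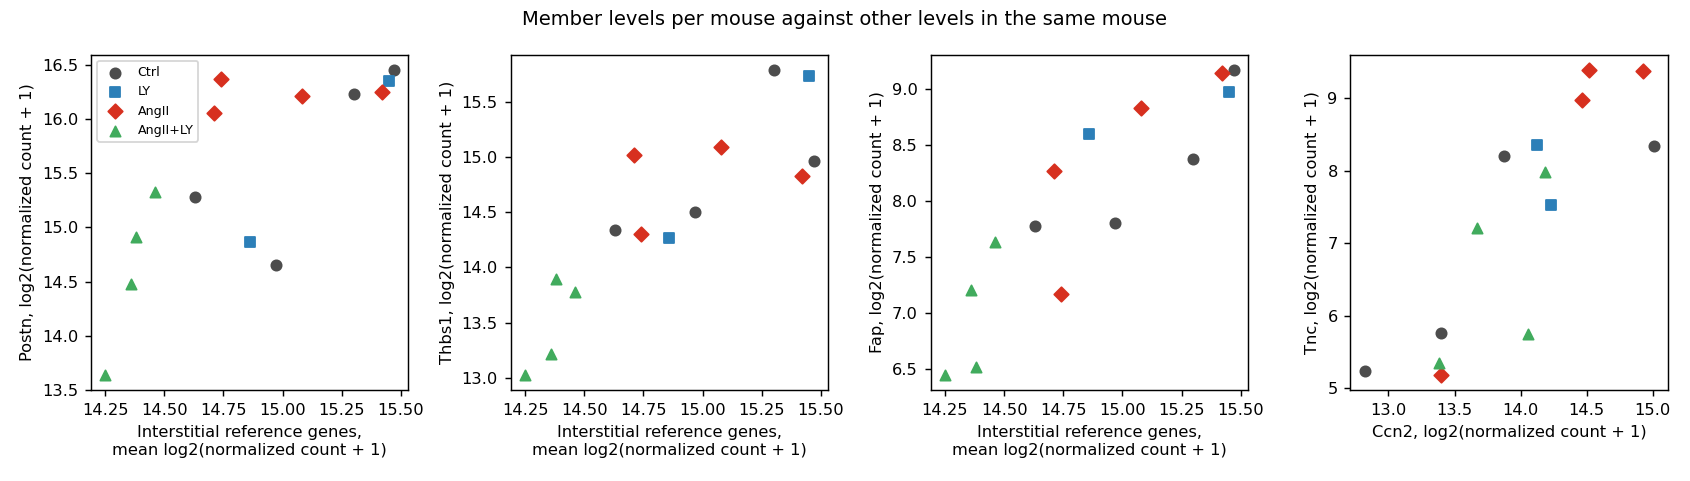
Log2(normalized count + 1) of Postn, Thbs1 and Fap in the first 3 panels against the mean log2(normalized count + 1) of the 14 interstitial reference genes, and of Tnc against Ccn2 in the last, with 1 point per mouse and a colour and shape per group. The AngII+LY mice sit at the low end of the interstitial axis (14.2 to 14.5) and low in Postn, Thbs1 and Fap, while in the last panel (r = 0.84) the groups are mixed along the diagonal.

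The pathways around the 9 genes were read from gene lists, none of which held a gene past the edgeR threshold in these comparisons. Among 22 further activated fibroblast genes, AngII mice had 6 higher and 3 lower than Ctrl mice at an unadjusted p under 0.05, where 13.4% of all genes were higher and 11.7% lower. By fitted level, 11 of the 22 were higher and 11 lower. Col8a1, a short-chain collagen, had a log2 fold change of 2.0 (SE 0.40, adjusted p = 0.0573 in edgeR), Inhba, the activin A subunit, 1.80 and Spp1, osteopontin, 2.95. Spp1 had 6219 ± 5331 normalized counts in AngII (SD, n = 4). Acta2 and Tagln, of the same list, had lower means in AngII, 8516 and 351 normalized counts. Their Ctrl values were 84336 ± 134520 and 1291 ± 1605, with an SD larger than the mean. Between AngII+LY and AngII, 16 of the 22 had lower fitted levels, 6 of them at an unadjusted p under 0.05, where 12.4% of all genes were lower. These included Col12a1 (-1.40), Sfrp1 (-1.29) and Col5a2 (-0.84). Against Ctrl, Col8a1 had a log2 fold change of 1.63 in AngII+LY.

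Of the 14 integrins and other receptors through which these matrix proteins act, AngII mice had 6 higher and 1 lower than Ctrl mice at an unadjusted p under 0.05, beside the same 13.4% and 11.7% of all genes. Itgav, the alpha V chain that pairs in receptors for periostin, fibronectin and the CCN proteins, had a log2 fold change of 0.93 (adjusted p = 0.0601 in edgeR), and Itgb1 0.93 (SE 0.31). Itgb3 had 2.23 (SE 0.72), with 11150 ± 13976 normalized counts in AngII (SD, n = 4), an SD larger than the mean. Between AngII+LY and AngII, 10 of the 14 had lower fitted levels, 4 at an unadjusted p under 0.05 beside 12.4% of all genes, with Itgav at -1.12 (adjusted p = 0.0588), Itgb1 at -0.85 and Cd47, a receptor of thrombospondin 1, at -0.69.

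Of the 22 YAP and TAZ target genes other than the CCN genes, 16 had lower fitted levels in AngII+LY than in AngII, 6 at an unadjusted p under 0.05 beside 12.4% of all genes, with Ccdc80 at -1.28 (adjusted p = 0.0588 in edgeR) and Lats2, a kinase that restrains YAP and TAZ, at -0.63. Of the 12 early target genes of TGF-beta, 10 had lower fitted levels, 2 of them at an unadjusted p under 0.05 beside 12.4% of all genes. These 2 were Skil (-0.68) and Tgif1 (-0.66), which both encode repressors of SMAD activity. Id1, a target of BMP signalling as well, was higher at that p, with 0.50, beside 10.1% of all genes. DESeq2 called 0 of the 12. In the lymphotoxin pathway around Ltbr, Chuk, a kinase of the alternative NF-kappaB route, had a log2 fold change of 0.96 in AngII against Ctrl and -0.88 in AngII+LY against AngII, and Map3k14, the kinase NIK that activates it, had -1.48 and 1.27. Some close relatives of the 9 genes differed between groups at an unadjusted p under 0.05 in edgeR. In AngII against Ctrl, Comp, the thrombospondin of cartilage and tendon, had a log2 fold change of -1.19. Among the relatives of Fap, Dpp8 had 0.75 (adjusted p = 0.0574 in edgeR) in AngII against Ctrl and -0.73 (adjusted p = 0.0588) in AngII+LY against AngII. DESeq2 called Dpp8 in both comparisons and Comp in AngII against Ctrl. At that unadjusted p, Dpp9 was lower in AngII than in Ctrl and Dpp4 lower in AngII+LY than in AngII. Comp and Thbs2 were lower in AngII+LY than in Ctrl.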

How the data were processed

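RNA of aortic valve leaflets from 14 mice was sequenced as 1 library per mouse. The authors checked reads with FastQC 0.12.1, trimmed low-quality sequence, aligned with HISAT2 to GRCm39 and deposited counts per gene made with featureCounts (versions of the latter tools and strand setting not given in the sources used here). The table is described as normalized, but all values are whole numbers and totals differ between libraries, so the deposited values were treated as raw counts. Ensembl identifiers were matched to GENCODE vM39, where 618 of 56941 genes had no match.

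The tested genes, those averaging 10 or more counts per library, were fitted with edgeR 4.0.16 (quasi-likelihood, TMM, 1 fit of all 4 groups, R 4.3.3) with Benjamini-Hochberg adjustment. A call needed an adjusted p below 0.05 and a log2 fold change beyond 0.5 in either direction. Normalized counts are counts scaled to the mean effective library size, and correlations use log2(normalized count + 1). Unadjusted p-values, group overlap and exact 2-sided permutation tests were given beside the calls. DESeq2 1.42.0, limma 3.58.1, other scalings and filters, a GC correction (loess span 0.3), a replicate block and leaving out each mouse were alternatives. Counts were also simulated for AngII against Ctrl over 18597 genes, with 100 of them changed 2-fold and 100 changed 4-fold. In these, edgeR recovered 17 of 100 genes changed 2-fold and 75 of 100 changed 4-fold with 3 false calls, and DESeq2 30 and 89 with 48 false calls. In the data, 25.2% of genes had an unadjusted p under 0.05 in edgeR in this comparison. The simulated share of changed genes was set beforehand, so these figures may not hold for the data.

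All 9 genes were named in every comparison. For the other lists, up to 4 genes of smallest p among those with an unadjusted p under 0.05, and for each gene the 3 genes most like it among those with a mean count of at least 100, could be named. The lists were interstitial reference genes, valve interstitial, cardiomyocyte, smooth muscle, endothelial, macrophage, lymphocyte, erythroid and adipocyte markers, further activated fibroblast genes, TGF-beta early targets, YAP and TAZ targets, the CCN, thrombospondin, tenascin and dipeptidyl peptidase families, integrins and receptors, the lymphotoxin pathway and immediate early genes. The 9 genes and these lists were chosen with earlier results of these data known. Human specimens and cultured cells of the study were not analysed here. The promoter of 1 of the 9 genes is not reported here.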

Additional observations from a re-analysis of the deposited data

How the results depend on the processing

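Under every alternative run, leaving out each mouse included, edgeR called 0 of the 9 genes in each comparison, except with scaling to interstitial genes, where it called 1 in AngII+LY against AngII (Ltbr, 0.84). With that scaling 2754 of all 19145 genes were called in the same comparison, 2707 of them higher. DESeq2 called 1 in AngII against Ctrl (Fn1), 3 in AngII+LY against AngII (Postn, Thbs1 and Fap) and 1 in AngII+LY against Ctrl (Thbs1). Over all genes the counts of calls were 2663 and 2082 by DESeq2 against 0 by edgeR in AngII against Ctrl and AngII+LY against AngII, 343 in AngII+LY against Ctrl, 21 in LY against Ctrl, and 555 and 176 with the newer quasi-dispersion of edgeR, chosen after seeing the data, in the first pair. The older quasi-dispersion is the default of this edgeR version and so gave no separate value. In AngII+LY against AngII, Postn and Thbs1 had an unadjusted p under 0.05 in every setting and Fap in all but the interstitial scaling. With each mouse left out in turn, their log2 fold changes ran from -1.79 to -1.28, from -1.47 to -1.18 and from -1.77 to -1.21, and over all settings their adjusted p from 0.00597 to 0.345, from 0.00692 to 0.245 and from 0.0179 to 0.343.

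Signs reversed as follows. In AngII against Ctrl, the GC correction gave -0.11 for Postn, 0.10 for Ccn1, 0.14 for Thbs1, -0.35 for Fap and 0.08 for Ltbr, and with the replicate block as well -0.13, 0.06, 0.19, -0.47 and 0.07. In AngII+LY against AngII, the interstitial scaling gave 0.45 for Fn1, and the GC correction gave -0.16 for Ccn1 and -0.18 for Ltbr, and with the block -0.12 and -0.18. In AngII+LY against Ctrl, the interstitial scaling put the median of all genes at 0.67. It gave 0.46 for Ccn1, 0.70 for Ccn2, 0.28 for Tnc and 0.36 for Ltbr. Ccn2 was also at 0.05 with limma, 0.08 with the GC correction and 0.09 with the block as well. In LY against Ctrl, Fn1 was at -0.05 with the interstitial scaling and Fap at -0.17 with the block and GC correction. In the interaction, Fn1 was at 0.50 with the interstitial scaling and Ltbr at -0.04 with the GC correction. The causes were not tested. Leaving out 1 mouse moved across 0 Thbs1 (-0.35 to 0.21) and Fap (-0.16 to 0.51) in AngII against Ctrl, Ccn1 (-0.11 to 0.25) and Ltbr (-0.01 to 0.37) in AngII+LY against AngII, Ccn2 (-0.40 to 0.43) and Cthrc1 (-0.17 to 0.33) in AngII+LY against Ctrl, and Postn (-0.96 to 0.52), Fn1 (-0.05 to 0.36), Ccn2 (-0.08 to 0.75) and Thbs1 (-0.75 to 0.72) in LY against Ctrl.

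Replicate numbers did not pair the mice: deviations of the 18 same-numbered pairs had correlations from -0.128 to 0.0897, 0 of them over 0.1, and 2 of 14 libraries correlated best with their own number. With the replicate number as a block, 0 of the 9 genes and 0 of all genes were called in each of the 5 comparisons. The 2 LY mice and the low counts of Tnc limit precision.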

Other observations

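The immediate early genes, transcription factors and feedback regulators that tissue handling or stress induces within minutes, mostly had lower fitted levels in the dosed mice than in Ctrl. In AngII against Ctrl, 12 of 14 had lower fitted levels and 9 had an unadjusted p under 0.05 in edgeR, beside 11.7% of all genes, with log2 fold changes of -1.11 (SE 0.24, adjusted p = 0.0574) for Btg2, -1.13 for Zfp36, which encodes an mRNA decay factor, and -0.95 for Fos. DESeq2 called 5 of them. In LY against Ctrl, Nr4a1 had -1.10, Fos -1.22 and Egr1 -1.10, each with an unadjusted p under 0.05 and an adjusted p of 1 in edgeR. DESeq2 called 1 gene of this list lower there, Nr4a1 (adjusted p = 0.0142), and 0 higher, beside 0.110% of all genes called lower. Of the 9 genes, Ccn1 and Ltbr followed this list most closely over the libraries.

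Markers of other cell types differed as well, beside 13.4% of all genes higher and 11.7% lower at an unadjusted p under 0.05 in AngII against Ctrl. In AngII against Ctrl, 9 of 9 smooth muscle markers had lower fitted levels (7 at an unadjusted p under 0.05 and 4 called by DESeq2). Ctrl 1 and Ctrl 2 carried these markers, with mean log2 levels of 14.27 and 12.45, while Ctrl 3 and Ctrl 4, at 9.85 and 9.38, were within or below the AngII range of 9.61 to 11.23. Lower fitted levels were also found for 9 of 9 adipocyte markers (6 and 3), 8 of 10 macrophage markers (6 and 6) and 8 of 9 lymphocyte markers (3 and 0), while 6 of 9 endothelial markers had higher ones (1 and 1). In AngII+LY against AngII, 10.1% of all genes were higher and 12.4% lower at an unadjusted p under 0.05, and DESeq2 called 5.34% higher and 5.54% lower. Beside these shares, 9 of 9 smooth muscle markers (2 and 1), 6 of 9 adipocyte markers (2 and 2), 7 of 10 macrophage markers (2 and 0) and 5 of 5 erythroid markers (0 and 0) had higher fitted levels. All 12 valve interstitial markers had lower ones, 8 of them at an unadjusted p under 0.05, with a median log2 fold change of -0.97. The mitochondrial share of counts was 4.0 to 7.52% among Ctrl mice, 8.62 to 9.76% for the LY mice, 9.83 to 25.5% for the AngII mice and 10.1 to 20.2% for the AngII+LY mice. Among close relatives, 5 of 6 CCN genes were tested, and Ccn3 had a log2 fold change of -4.46 in LY against Ctrl (unadjusted p = 0.0205, adjusted p = 1 in edgeR), beside 24158 ± 43078 normalized counts in Ctrl (SD, n = 4), and Ctrl 1 held 0.311% of its counts in the CCN family against at most 0.0775% in the other Ctrl mice. Of 4 tenascin genes, Tnc in AngII+LY against AngII was the only one with an unadjusted p under 0.05 in any comparison.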
